A study of Mus musculus with 8 samples.

Results

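The NR2F orphan nuclear receptors were followed across 8 expression arrays of mouse skin tumour cells. All probe sets annotated to Nr2f1, Nr2f2 or Nr2f6 were taken. That gave 7 probe sets, 4 for Nr2f2, 1 for Nr2f1 and 2 for Nr2f6, out of 45037 probe sets other than array controls, and 3 genes out of 17097. No probe set assigned to several genes named a family member.

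NR2F receptors, also called COUP transcription factors, are nuclear receptors with a zinc-finger DNA-binding domain and a ligand-binding domain for which no natural ligand is firmly established. They bind paired copies of the hexamer AGGTCA in several spacings, as homodimers or with retinoid X receptors, and act as repressors or activators depending on the gene. Nr2f2 (COUP-TFII) is known for its roles in veins, lymphatic vessels and mesenchyme, Nr2f1 (COUP-TFI) for its role in the developing nervous system, and Nr2f6 (EAR2) as a broadly expressed relative that restrains T cell activation.

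The cells had been sorted by flow cytometry for Epcam, an epithelial adhesion protein. There were 4 groups of 2 arrays: NR2F2 gain of function (GOF) papilloma, its control papilloma with the genotype NR2F2 WT, knockout (KO) carcinoma, and its control carcinoma, also NR2F2 WT. Papilloma is a benign skin tumour and carcinoma here its malignant squamous counterpart. The KO tumours carried K5CreER, a tamoxifen-inducible Cre driven by the keratin 5 promoter of basal keratinocytes, and floxed alleles of NR2F2 (fl/fl), and their controls lacked Cre. What drives NR2F2 in the GOF tumours, the ages of the mice and the treatment schedule are not given in the sources used here. Whether replicate arrays stand for different mice is not stated, and the p-values cover no more than the scatter among the arrays at hand.

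The 250 bases upstream of a RefSeq start site of each gene (GRCm38.p6, minus strand in all 3 cases, written 5′ to 3′) are shown. The 3 windows shown differ sharply in base composition. Every CpG is in capitals.
Nr2f2 (chr7:70366747-70366996): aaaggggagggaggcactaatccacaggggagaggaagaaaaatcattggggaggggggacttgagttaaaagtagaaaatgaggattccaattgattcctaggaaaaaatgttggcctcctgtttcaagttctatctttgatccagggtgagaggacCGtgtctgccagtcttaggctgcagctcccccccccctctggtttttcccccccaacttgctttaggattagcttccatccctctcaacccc
Nr2f1 (chr13:78198874-78199123): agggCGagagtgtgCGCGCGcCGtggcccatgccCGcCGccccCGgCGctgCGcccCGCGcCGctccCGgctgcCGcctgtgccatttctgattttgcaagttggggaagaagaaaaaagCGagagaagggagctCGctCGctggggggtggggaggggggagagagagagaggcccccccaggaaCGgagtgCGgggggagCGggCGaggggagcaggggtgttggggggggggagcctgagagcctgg
Nr2f6 (chr8:71381953-71382202): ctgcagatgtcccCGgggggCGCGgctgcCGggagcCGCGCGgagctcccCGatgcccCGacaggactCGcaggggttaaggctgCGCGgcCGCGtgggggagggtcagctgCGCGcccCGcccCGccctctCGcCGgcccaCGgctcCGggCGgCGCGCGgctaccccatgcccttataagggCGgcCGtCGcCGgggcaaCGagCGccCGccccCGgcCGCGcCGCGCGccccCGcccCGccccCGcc

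The Nr2f2 window held 1 CpG at 50% GC, a number that 92.1% of the 32851 RefSeq windows of this length reached. The Nr2f1 window held 22 CpGs at 72.0% GC (reached by 14.8%), and the Nr2f6 window held 42 CpGs at 82.4% GC (reached by 0.865%). Across all windows the median was 6 CpGs. A second RefSeq start site of Nr2f1 had 2 CpGs at 39.6% GC, so the composition depends on the start site taken. The receptor hexamer AGGTCA, searched on both strands, was in none of these 4 windows and in 14% of all windows. No measurement of these arrays bears on the promoters themselves.

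Values are log2 expression levels of probe sets, that is, of groups of short oligonucleotides summarised by the authors with the RMA algorithm. The papilloma and carcinoma arrays were on different scales, with array medians of 3.12 to 3.16 and 5.08 to 5.15, so no level was set across the 2 tumour types. As background served, array by array, the brightest of the 44 controls that match no mouse sequence (3.09 to 3.33 in papilloma, 4.95 to 5.01 in carcinoma). All 5 keratinocyte markers (Epcam, Krt5, Krt14, Cdh1 and Trp63) were above it on all 8 arrays. With 2 arrays per group, precision is limited by their number.

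The gene that was manipulated, Nr2f2, was read by 4 probe sets, and 1 of them rose in GOF papilloma. This was 1416159_PM_at, which stood at 11.43 and 11.47 on the GOF arrays, against 2.80 and 2.55 on the control papilloma arrays. Both control values were below background and both GOF values lay over 8 log2 units above it, so the groups were far apart. The log2 fold change was 8.78 (limma adjusted p = 1.64e-05, with SE 0.14), at least 321-fold when the background is set in place of the control values. It was the one NR2F probe set of 7 that passed the threshold in GOF papilloma, where 0.184% of all 45037 probe sets did (0.107% higher and 0.0777% lower, with 12.9% at an unadjusted p under 0.05). Without either GOF array it was the single probe set on the whole array that still passed.

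The other 3 Nr2f2 probe sets did not pass. Probe set 1416158_PM_at stood at 4.24 and 3.79 on the GOF arrays, against 3.18 and 2.93 on the control papilloma arrays. The groups did not overlap, and both GOF values were above background, by 0.91 and 0.65. Its log2 fold change was 0.96 (SE 0.41, 95% confidence interval -0.02 to 1.93, limma adjusted p = 0.395). The fit pools the spread of all 4 groups. For this probe set the control carcinoma arrays varied most (standard deviation 0.89, against 0.32 in GOF and 0.17 in control papilloma). On the 4 papilloma arrays alone the SE was 0.20 and the probe set did not pass either (limma adjusted p = 0.167). Groups did not overlap for 3 of the 7 members and for 42.4% of all probe sets in this comparison.

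Probe set 1416160_PM_at stood at 3.01 and 2.68 in GOF, against 2.67 and 2.51 in control papilloma. Probe set 1436475_PM_at stood at 2.80 and 2.97 in GOF, against 3.01 and 2.83 in control papilloma. All 8 of these values were below background, so neither probe set gave a level in papilloma. Their log2 fold changes were 0.26 (95% confidence interval -0.69 to 1.20) and -0.04 (-0.31 to 0.23), with limma adjusted p = 0.868 and 0.949.

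**Figure D1:**
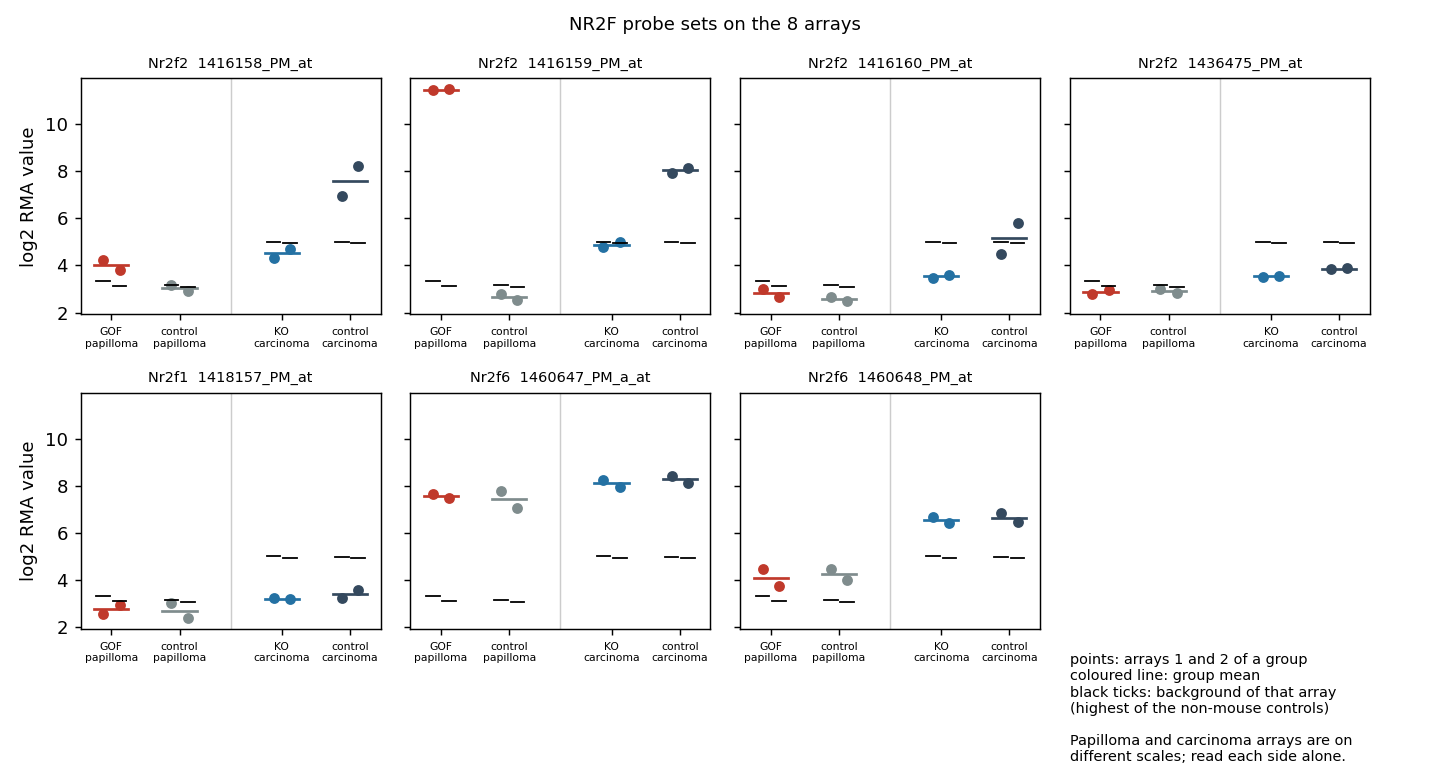
Log2 RMA value (y axis) of each of the 7 NR2F probe sets on the 8 arrays, with GOF left of control papilloma and KO left of control carcinoma. Points are arrays, coloured lines group means and black ticks the background of each array. Nr2f2 probe set 1416159_PM_at stands at 11.43 and 11.47 in GOF, while Nr2f1 lies below the ticks on every array and both Nr2f6 probe sets lie above them.

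In carcinoma 2 of the 4 Nr2f2 probe sets were well above background in the controls. Both had lower values in KO by similar amounts, and 1 of them passed the threshold. As their KO values lay near or below background, the similar amounts do not measure the full fall of either. Probe set 1416159_PM_at stood at 4.77 and 4.996 on the KO arrays, against 7.93 and 8.14 on the control carcinoma arrays. The KO values were at background, 0.23 below it on replicate 1 and 0.05 above it on replicate 2. The log2 fold change was -3.15 (limma adjusted p = 0.0113, with SE 0.14). With 1 of 2 KO arrays above background, and only just, no exact fold is given. It was the one NR2F probe set of 7 that passed in carcinoma, where 0.00666% of all probe sets did, 3 in number and all lower in KO (10.8% at an unadjusted p under 0.05).

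That call was not held by every fit. It ended on the 4 carcinoma arrays alone (limma adjusted p = 0.326), with the replicate number as a block (0.220), with all 4 probe sets averaged (-2.04, adjusted p = 0.0852), and without GOF replicate 1 or 2 (0.142 each), control papilloma replicate 1 or 2 (0.0510 each) or KO replicate 1 (0.125). Its value stayed between -3.26 and -3.04 whichever array was left out.

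Probe set 1416158_PM_at stood at 4.32 and 4.72 in KO, against 6.96 and 8.22 in control carcinoma. Both KO values were below background and both control values above it. The log2 fold change was -3.07 (SE 0.41, 95% confidence interval -4.05 to -2.09), at least 6.11-fold lower, and did not pass (limma adjusted p = 0.0986).

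Probe set 1416160_PM_at stood at 3.48 and 3.61 in KO, against 4.50 and 5.81 in control carcinoma. Control replicate 2 was the 1 value of the 4 above background. The fitted log2 fold change was -1.61 (limma adjusted p = 0.208, with SE 0.39), but against background the difference is bounded only as at least 1.13-fold lower. Without control carcinoma replicate 1 the log2 fold changes of 1416158_PM_at and 1416160_PM_at were -3.70 and -2.27, and both passed (limma adjusted p = 0.0122 and 0.0167). Without control carcinoma replicate 2 they were -2.44 and -0.96, and neither passed.

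Probe set 1436475_PM_at stood at 3.52 and 3.55 in KO, against 3.84 and 3.88 in control carcinoma, all below background. Its log2 fold change was -0.32 (limma adjusted p = 0.372, with SE 0.11). In carcinoma the groups did not overlap for 5 of the 7 members, all 4 Nr2f2 probe sets among them, and for 39.6% of all probe sets.

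**Figure D2:**
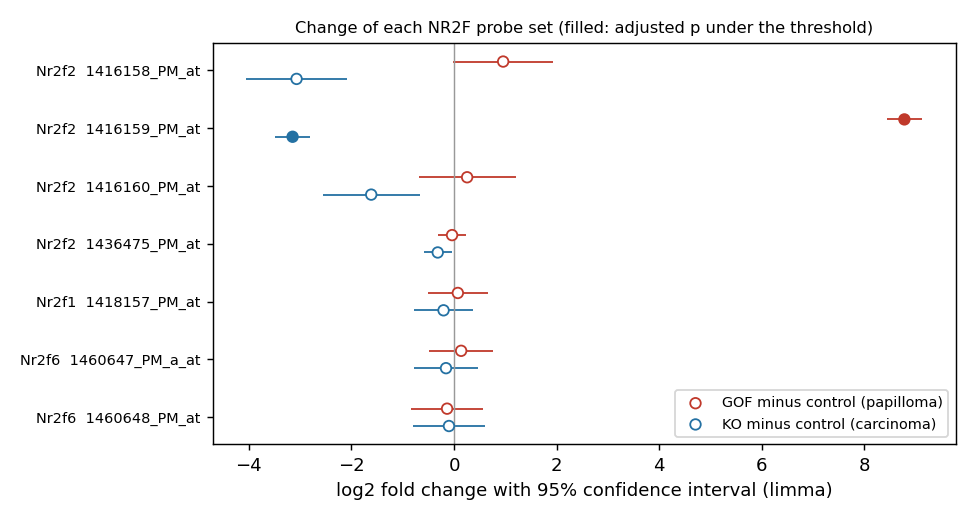
Log2 fold change (x axis) of each NR2F probe set with its 95% confidence interval from limma, GOF minus control in red and KO minus control in blue. Filled points passed the adjusted threshold: 1416159_PM_at at 8.78 in GOF and at -3.15 in KO.

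The disagreement among Nr2f2 probe sets was tested on the difference, array by array, between each probe set and the brightest of its gene, in 1 fit over the 11801 such differences of 7180 genes. All 3 Nr2f2 differences from 1416159_PM_at passed in GOF papilloma, where 0.661% of all differences did. The difference 1416158_PM_at minus 1416159_PM_at was -7.19 and -7.69 on the GOF arrays, against 0.38 and 0.38 on the control papilloma arrays, a change of -7.82 (limma adjusted p = 0.000117, with SE 0.33). For 1416160_PM_at the change was -8.52 (SE 0.33, adjusted p = 9.32e-05) and for 1436475_PM_at -8.82 (SE 0.15, adjusted p = 3.95e-07). These last 2 probe sets were below background on all 4 papilloma arrays, as was 1416159_PM_at in control papilloma, so both changes restate the rise of 1416159_PM_at against probe sets with no measured level. The 3 differences share 1416159_PM_at and are not independent. They show unequal change of the probe sets and say nothing on which of them reads the transcript better.

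In carcinoma 1416158_PM_at and 1416159_PM_at were not shown to change unequally. Their difference was -0.45 and -0.28 in KO, against -0.97 and 0.08 in control carcinoma, and its change was 0.08 (SE 0.33, 95% confidence interval -0.69 to 0.85, limma adjusted p = 1.000). As the KO values of both lay near or below background, this does not show equal falls in transcript. In GOF papilloma, on the other scale, the same pair lay over 7 log2 units apart. For 1416160_PM_at the change in carcinoma was 1.53 (limma adjusted p = 0.394, with SE 0.33). For 1436475_PM_at it was 2.83 (SE 0.15, limma adjusted p = 0.00168, where 0.0254% of all differences passed), with differences of -1.25 and -1.44 in KO, against -4.09 and -4.26 in control carcinoma. As 1436475_PM_at was below background on all 8 arrays, that last change is the fall of 1416159_PM_at against a probe set with no measured level. It ended on the 4 carcinoma arrays alone (limma adjusted p = 0.149).

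**Figure D3:**
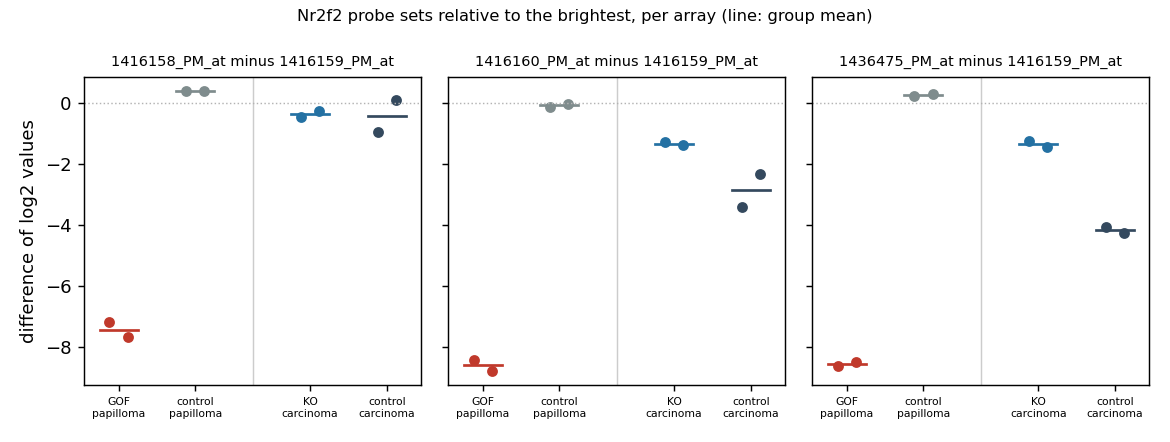
Difference of log2 values (y axis) between each of the other 3 Nr2f2 probe sets and 1416159_PM_at on each array, with GOF left of control papilloma and KO left of control carcinoma. Points are arrays and lines group means. For 1416158_PM_at the GOF arrays lie at -7.19 and -7.69, whereas the KO and control carcinoma arrays lie between -0.97 and 0.08.

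Among the 695 genes with 4 probe sets, none but Nr2f2 had log2 fold changes spread as widely in GOF papilloma (8.82 from lowest to highest, median of these genes 0.40), nor in KO carcinoma (2.83, median 0.28). The annotation ties 1416158_PM_at, 1416159_PM_at and 1416160_PM_at to the same sequence accession and 1436475_PM_at to another. Where their probes lie on the transcript, relative to the floxed part or to the sequence overexpressed in GOF, cannot be read from the files, so a probe set that did not move does not check either label.

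The 2 control carcinoma arrays differed in the same probe sets. Replicate 2 was above replicate 1 by 1.26 for 1416158_PM_at and by 1.32 for 1416160_PM_at, but by 0.21 for 1416159_PM_at. Endothelial, fibroblast, pericyte and smooth muscle, and macrophage marker lists also had higher means on that array. The mean log2 level of 10 endothelial markers was 4.86 and 5.003 in KO, against 5.05 and 5.91 in control carcinoma, and that of 9 fibroblast markers 6.21 and 6.71 in KO, against 6.54 and 7.81 in control carcinoma. The 4 pericyte and smooth muscle markers averaged 4.97 and 5.82 in KO, against 5.73 and 7.32 in control carcinoma, and the 9 macrophage markers 4.95 and 5.30 in KO, against 5.15 and 6.71 in control carcinoma. None of these genes passed in KO, where 0.0117% of all 17097 genes did. Positive log2 fold changes were found for 0 of 10, 0 of 9, 0 of 4 and 0 of 9 of them. The counts were 1 of 5 for keratinocyte, 1 of 5 for melanocyte and 2 of 5 for T cell genes. Over all genes the median log2 fold change was -0.002. The part of cells other than keratinocytes in the Nr2f2 values was not tested. Fewer cells of a type cannot be told apart from less RNA per cell.

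In papilloma the endothelial list averaged 4.78 and 4.91 in GOF, against 3.35 and 3.25 in control papilloma, and the fibroblast list 7.40 and 7.64 in GOF, against 7.27 and 6.38 in control papilloma. The 9 macrophage markers averaged 5.36 and 6.27 in GOF, against 3.24 and 3.12 in control papilloma. The 4 pericyte and smooth muscle markers averaged 6.03 and 5.55 in GOF, against 4.27 and 4.29 in control papilloma. Epcam, the sorting antigen, stood at 9.004 and 8.68 in GOF, against 10.17 and 10.57 in control papilloma (log2 fold change -1.53, limma adjusted p = 0.0605). The other keratinocyte markers differed less, with log2 fold changes of 0.03 for Krt5, 0.01 for Krt14, -0.22 for Cdh1 and -0.37 for Trp63. None of them passed. Of the endothelial genes 0 of 10 passed on their brightest probe set, and Egfl7 passed on another. Of the macrophage genes Lyz2 passed. Over all 17097 genes 0.298% passed on the brightest probe set. Positive log2 fold changes were found for 9 of 10 endothelial, 9 of 9 fibroblast, 3 of 4 pericyte and smooth muscle and 9 of 9 macrophage genes. They were found for 2 of 5 keratinocyte and 1 of 5 melanocyte genes. The T cell list averaged 3.02 and 3.11 in GOF, against 2.89 and 3.01 in control papilloma. Over all genes the median log2 fold change was 0.01. Above background on all 8 arrays were 4 of the 10 endothelial genes (Pecam1, Cdh5, Egfl7 and Lyve1), 6 of the 9 fibroblast genes (among them the collagen genes Col1a1 and Col3a1), 1 of the 4 pericyte and smooth muscle genes (Acta2) and 3 of the 9 macrophage genes (Cd68, C1qc and Csf1r). Above it on no array was 1 gene each of the endothelial (Prox1), fibroblast (Col1a2) and pericyte and smooth muscle (Des) lists. The part of these cells in the GOF values was not tested.

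Nr2f1, the closest relative of Nr2f2, was not detected. Its single probe set stood at 2.58 and 2.95 in GOF, against 3.01 and 2.38 in control papilloma, and at 3.23 and 3.18 in KO, against 3.24 and 3.57 in control carcinoma. All 8 values were below background. The groups overlapped in papilloma and lay apart by a small step in carcinoma. The log2 fold change was 0.07 in GOF (SE 0.24, 95% confidence interval -0.51 to 0.66, limma adjusted p = 0.956) and -0.20 in KO (SE 0.24, -0.79 to 0.38, adjusted p = 0.943). With the gene below background these intervals bound the probe set's signal and not the amount of transcript.

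Nr2f6 was detected on all 8 arrays by both of its probe sets, and neither passed in either comparison. The brighter, 1460647_PM_a_at, stood at 7.64 and 7.49 in GOF, against 7.80 and 7.05 in control papilloma, and at 8.26 and 7.97 in KO, against 8.41 and 8.12 in control carcinoma. The groups overlapped in both tumour types. Its log2 fold change was 0.14 in GOF (SE 0.26, 95% confidence interval -0.48 to 0.76, limma adjusted p = 0.897) and -0.16 in KO (SE 0.26, -0.77 to 0.46, adjusted p = 0.987). A change of 2-fold in either direction lies outside both intervals.

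The dimmer Nr2f6 probe set, 1460648_PM_at, stood at 4.48 and 3.74 in GOF, against 4.48 and 4.01 in control papilloma, and at 6.68 and 6.40 in KO, against 6.84 and 6.45 in control carcinoma. Again the groups overlapped. Its log2 fold changes were -0.14 (limma adjusted p = 0.919, with SE 0.29) and -0.10 (SE 0.29, adjusted p = 1.000). Unlike those of Nr2f2, the 2 Nr2f6 probe sets were not shown to change unequally: their difference changed by -0.27 in GOF (SE 0.21, 95% confidence interval -0.77 to 0.22, adjusted p = 0.634) and by 0.06 in KO (SE 0.21, -0.44 to 0.55, adjusted p = 1.000).

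Detection depended on which controls set the background. The array also carries 23 control probe sets of nonspecific sequence at rising GC content, which ran from 2.26 to 5.65 on the papilloma arrays and from 2.87 to 7.34 on the carcinoma arrays. Nr2f6 probe set 1460647_PM_a_at was above all 23 on all 8 arrays, and Nr2f2 probe set 1416159_PM_at above all 23 on the GOF and control carcinoma arrays. Nr2f6 probe set 1460648_PM_at was below 1 of the 23 on each array. Nr2f2 probe set 1416158_PM_at was below 3 and 1 of them on the GOF arrays, and below 1 and 0 on the control carcinoma arrays. The GC content of the members' own probes is not in the files.

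Genes that overlap or flank the family genes in the RefSeq gene order were looked at after the values had been seen. B130024G19Rik, which overlaps Nr2f2 on the opposite strand, was below background on all 8 arrays, with log2 fold changes of -0.004 in GOF and -0.0007 in KO. A830082K12Rik, which overlaps Nr2f1 on the opposite strand, was below background on all 8 arrays too. Of the nearest protein-coding genes beside Nr2f2 that have a probe set, Arrdc4 had log2 fold changes of -0.52 in GOF (limma adjusted p = 0.343) and -0.61 in KO (adjusted p = 0.317), and Mctp2 of 0.17 in GOF (adjusted p = 0.905) and -0.57 in KO (adjusted p = 0.671). None of the 8 genes looked at around the family passed.

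Genes whose profile was most like that of Nr2f2 were found by Pearson correlation with 1416159_PM_at within each tumour type, ranked by the lower of the 2 values among 807 genes that ranged over at least 1 log2 unit in both. With 4 arrays in 2 groups of 2, any gene with a clear difference between groups scores high, and the correlations are a description of these arrays. The 5 highest were Flt1, a VEGF receptor gene, Gfpt2, whose enzyme feeds the hexosamine pathway, the glutamine transporter gene Slc38a1, the integrin gene Itgb3 and Gdpd3, a phosphodiesterase family gene. Each was higher in both GOF arrays than in both control papilloma arrays and lower in both KO arrays than in both control carcinoma arrays. That order follows from the way the genes were picked and is no separate result.

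Gfpt2 stood at 9.29 and 9.47 in GOF, against 5.11 and 3.93 in control papilloma, and at 4.94 and 5.12 in KO, against 6.41 and 6.24 in control carcinoma (r = 0.99 in each tumour type, n = 4 arrays each). Slc38a1 stood at 5.69 and 5.76 in GOF, against 3.15 and 3.29 in control papilloma, and at 5.37 and 5.60 in KO, against 6.55 and 7.10 in control carcinoma (r = 1.00 in papilloma and 0.97 in carcinoma). These 2 passed in GOF, with log2 fold changes of 4.86 for Gfpt2 (limma adjusted p = 0.0193) and 2.51 for Slc38a1 (adjusted p = 0.0195). Gfpt2 was below background on KO replicate 1, and Slc38a1 on control papilloma replicate 1.

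Flt1 stood at 5.40 and 5.51 in GOF, against 4.51 and 4.33 in control papilloma, and at 5.88 and 6.15 in KO, against 7.05 and 7.19 in control carcinoma. Its log2 fold changes were 1.03 (limma adjusted p = 0.0551) and -1.11 (adjusted p = 0.0926), and did not pass. Itgb3 was below background on both KO arrays and on control papilloma replicate 1. Its log2 fold changes were 0.86 and -0.95, and those of Gdpd3 0.92 and -0.84. Neither gene passed. None of the 5 passed in KO, where their limma adjusted p ran from 0.0926 for Flt1 to 0.248 for Gfpt2. The 2 Slc38a1 probe sets ranged from 0.76 to 2.51 in GOF, the 2 Itgb3 probe sets from 0.18 to 0.86 in GOF, and the 3 Flt1 probe sets from -1.11 to -0.43 in KO. Nr2f1 and Nr2f6 ranged over less than 1 log2 unit in each tumour type, so no gene was ranked against them.

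**Figure D4:**
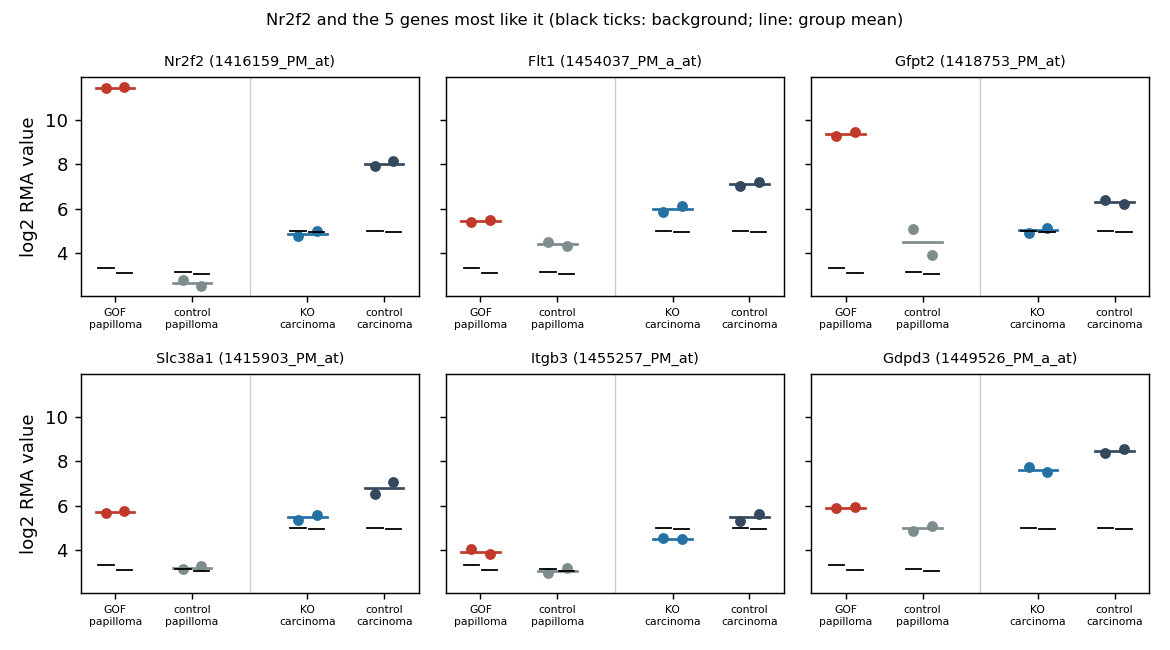
Log2 RMA value (y axis) of Nr2f2 probe set 1416159_PM_at and of the 5 genes most like it on the 8 arrays, with GOF left of control papilloma and KO left of control carcinoma. Points are arrays, lines group means and black ticks the background of each array. In every panel both GOF points lie above both control papilloma points and both KO points below both control carcinoma points. For the 5 genes this follows from the way they were picked.

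Other receptors of the NR2 subfamily, to which retinoid X receptors also belong, were not shown to change with Nr2f2. Of 8 measured, 0 passed in GOF and 0 in KO, with median log2 fold changes of 0.02 and -0.02 beside 0.01 and -0.002 over all 17097 genes; 0.298% of genes passed in GOF and 0.0117% in KO. The largest differences were in the orphan receptor genes Nr2c1 (-0.71 in GOF, limma adjusted p = 0.257, and -0.35 in KO) and Nr2c2 (0.35 in KO), and in Hnf4a (0.23 in GOF), which was above background on 2 of 8 arrays. Rxra, the retinoid X receptor gene of epidermis, stood at 8.43 and 8.01 in GOF, against 8.61 and 7.85 in control papilloma, and at 9.27 and 9.54 in KO, against 9.40 and 9.32 in control carcinoma. The groups overlapped in both tumour types.

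Receptors that share direct repeat sites with the COUP factors gave 0 of 10 past the threshold in each comparison (medians -0.09 in GOF and 0.07 in KO). The vitamin D receptor gene Vdr had the largest difference in GOF, with 6.98 and 7.17 in GOF, against 7.97 and 7.92 in control papilloma (log2 fold change -0.87; limma adjusted p = 0.0658, with SE 0.12). It was followed by Pparg, a fat cell and sebocyte regulator, at -0.46. In KO the largest were the oestrogen receptor gene Esr1 at 0.41 and Pparg at -0.21.

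Of 12 measured genes of cofactors and partner proteins, 0 passed in each comparison (medians -0.14 in GOF and -0.10 in KO). The zinc-finger partner genes Bcl11b (-0.67) and Bcl11a (-0.50) differed most in GOF, and the coactivator gene Ncoa2 (-0.47) and the histone deacetylase gene Hdac1 (0.42) in KO. Of 9 hedgehog pathway genes, which lie upstream of Nr2f2 in mouse embryos and uterus, 0 passed in each (medians -0.09 in GOF and 0.11 in KO). The pathway transcription factor gene Gli2 (-0.83) and the receptor gene Ptch1 (0.83) differed most in GOF, and the transducer gene Smo (0.64) and Gli2 (0.44) in KO.

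Among 16 genes linked to COUP factors in other tissues 0 passed in each comparison, with medians of 0.12 in GOF and -0.13 in KO. Kdr, a VEGF receptor gene, stood at 4.73 and 4.74 in GOF, against 3.27 and 2.71 in control papilloma (log2 fold change 1.74, limma adjusted p = 0.118, with SE 0.35). Snai1, a regulator of epithelial to mesenchymal transition, differed by 1.57 (SE 0.32, adjusted p = 0.118). In KO the largest difference was that of Nrp1, a coreceptor for semaphorins and VEGF, with 5.33 and 6.16 in KO, against 7.36 and 7.38 in control carcinoma (-1.62, SE 0.44, adjusted p = 0.243). It was followed by Flt1 at -1.11. Kdr, Flt1 and Nrp1 are also vessel genes, and Kdr is itself on the endothelial list. The means of that list were well apart in papilloma. In carcinoma they were 4.86 and 5.003 in KO, against 5.05 and 5.91 in control carcinoma. There 4 of the 10 list genes were above background on both arrays of either group, so these means lie partly at background. The part of endothelial cells was not tested.

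**Figure D5:**
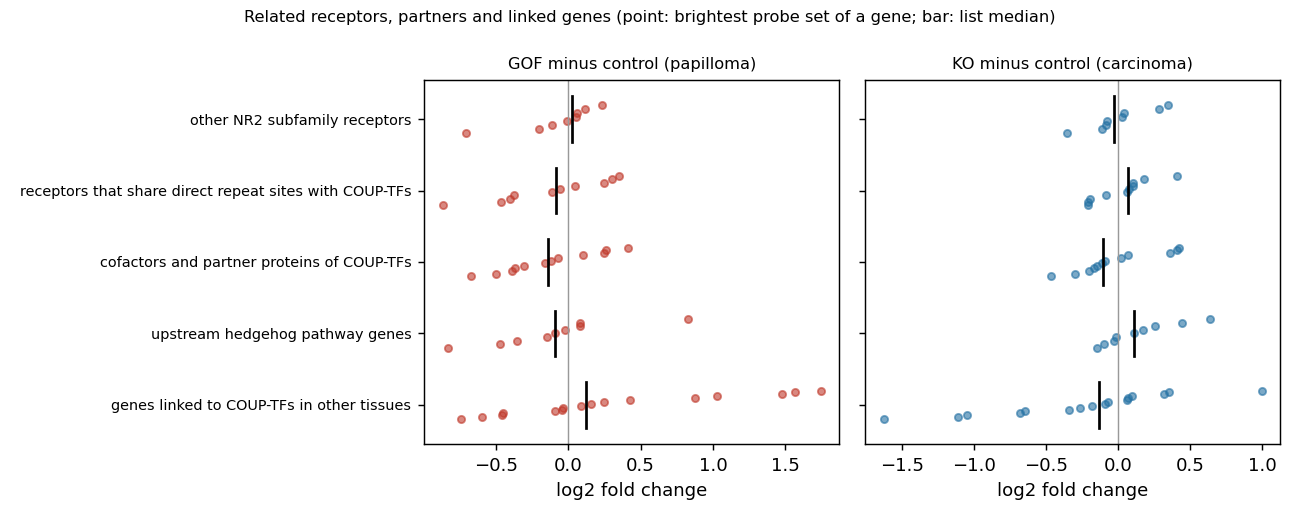
Log2 fold change (x axis) of the measured genes of 5 lists around the NR2F family, GOF minus control in papilloma at left and KO minus control in carcinoma at right. Each point is the brightest probe set of a gene and each bar a list median. The medians lie between -0.14 and 0.12 in GOF and between -0.13 and 0.11 in KO, and no point passed the threshold.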

How the data were processed

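RNA from Epcam-sorted tumour cells was hybridised to 8 Affymetrix Mouse Genome PM strip arrays, 2 per group. Per the labels, the authors normalized the arrays with RMA and deposited the resulting log2 values in a single table; the submitters' processing notes name RMA and affy without versions. Groups and replicate numbers come from the sample titles.

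Leaving out 104 Affymetrix controls, 45037 probe sets entered a fit in limma 3.58.1 (R 4.3.3; lmFit, eBayes) that gave each group its mean and drew the contrasts within a tumour type. It had 4 residual degrees of freedom and a prior of 2.40, and pooled the spread of each probe set over all 4 groups. No low-value filter was set, so that every member was tested. Benjamini-Hochberg adjustment ran over all of them, with a threshold of 0.05. An exact permutation test of 2 arrays against 2 cannot go below p = 0.333. Gene names come from the platform annotation, and 28689 of 28898 single-gene probe sets matched RefSeq (GRCm38.p6), which also gave the promoter windows and gene order. Differences between probe sets of 1 gene were tested in a second limma fit. A listed gene stands on its probe set with the highest mean. A fold written "at least" has a dimmer group with no array above background; its value was raised to background on each array first.

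Named were all members, list genes past the threshold (otherwise the 2 with the largest log2 fold change in size), and the 5 genes most like Nr2f2. Members and lists were chosen with earlier results of these data known. The scripts were tested on simulated data. Alternatives covered filters, probe set summaries, variance prior, normalization, the samples fitted, the replicate block and each array left out.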

Additional observations from a re-analysis of the deposited data

How the results depend on the processing

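In GOF papilloma 1 NR2F probe set, 1416159_PM_at, passed in the fit as reported and under all alternatives run (the gene's mean, where its probe sets were averaged), with a log2 fold change of 8.66 to 8.90 when single arrays were left out. The count over all probe sets was less firm. It was 83 as reported, and 283 with the filter on background, 189 with the filter on the median of all values, 248 with a trended and robust prior, 139 with median centring, 130 with quantile normalization, 5 with the replicate block, and 1 to 263 with single arrays left out (1 without either GOF array, 8 without control papilloma replicate 2, 28 without either KO array, 263 without either control carcinoma array).

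In KO carcinoma the count of NR2F probe sets was 1 as reported and 0 on the 4 arrays alone, with the mean of the probe sets and with the replicate block. Leaving out single arrays gave 0 to 3. The count over all features was 3 as reported, 31 with the trended and robust prior, 0 on the 4 arrays alone, with the mean of probe sets and with the replicate block, and 0 to 366 with single arrays left out, 366 being without control carcinoma replicate 1. Where an array was left out, the lone sample of its group was assumed to vary like the other groups.

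Of the differences between probe sets, 4 passed as reported, 3 in GOF and 1 in KO. With the filter on the median of all values 2 passed, since 5 of 7 members were kept. With the filter on background, which kept 4 members in each tumour type, 1 passed in GOF and 0 in KO. On the 4 arrays of a tumour type alone 3 passed in GOF and 0 in KO, and with the replicate block 4.

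Values near 0 changed sign when single arrays were left out: from -0.13 to 0.052 for 1436475_PM_at, -0.24 to 0.39 for Nr2f1, -0.23 to 0.51 for 1460647_PM_a_at and -0.51 to 0.24 for 1460648_PM_at in GOF, and from -0.29 to 0.095 for 1460648_PM_at in KO. The Nr2f6 difference between probe sets ran from -0.57 to 0.019 in GOF, and that of 1416158_PM_at and 1416159_PM_at from -0.45 to 0.60 in KO. The cause of these moves was not tested.

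The replicate numbers pair samples only by number: deviations of same-numbered arrays correlated at 0.06 in papilloma and 0.14 in carcinoma over all probe sets.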
